A study of Mus musculus with 8 samples.

Results

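The major urinary protein (Mup) genes lie side by side on mouse chromosome 4, and they were examined here as the HpaII sites between positions 59900000 and 61900000 of build mm9. Of the 1310003 HpaII sites listed in all 8 samples, 538 fell in this 2 Mb interval. They were compared with the 1157 sites of the 2 Mb before it and the 1468 sites of the 2 Mb after it. The first member lay at position 59900308 (m-score 21.4) and the last at 61898006 (45.1), and the nearest sites outside lay at 59899220 and 61901831 (m-score 0 at each). Liver DNA came from 8 C57BL/6J mice that had all received a high-fat diet (HFD), 4 of them with lingonberries added to it and 4 without. The study asked whether the berries altered hepatic DNA methylation across the genome. The age and sex of the mice, and how long they were fed, are not stated in the labels. Whole liver was used, so each value is an average over its cell types.

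Mups are small secreted lipocalins that the liver makes in large amounts. They pass into the urine, where they carry volatile pheromones and mark the identity of the animal, and Mup20 (darcin) attracts females to male scent. Their genes are copies of one another that arose by repeated duplication, and hepatic Mup expression depends on growth hormone and sex steroids and is known to fall in obese mice. In vertebrate DNA most CpGs outside CpG-dense promoters are methylated, and promoters of liver genes with few CpGs can be active without a CpG island.

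Methylation was read by HELP-tagging. HpaII cuts CCGG only when the central CpG is unmethylated, MspI cuts it in either state, and a tag is sequenced from each cut end. Each site carried an m-score, the angle between its MspI and HpaII tags, which runs from 0 (no HpaII tag, the methylated end) to 100 (no MspI tag, the unmethylated end). The MspI reference was the same in all 8 samples. The samples held between 5877080 and 16076961 HpaII tags, and the deepest library was in the lingonberry group. Across the 96 sites of the interval with whole tags and at least 10 MspI tags, the samples correlated pairwise at Pearson's r of 0.804 to 0.907 (across sites, which are not replicates). Tags that were not whole numbers were read as tags divided among several matching places. A site is called shared where its MspI tags, or its HpaII tags in any sample, were not whole within 0.02 of a tag, and such sites are reported apart.

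In the RefSeq annotation of GRCm38.p6, a later build than the one used for the sites, 44 entries named Mup stand in one run on chromosome 4. Of these, 22 are numbered genes from Mup4, Mup6, Mup7 and Mup2 at one end to Mup20, Mup3 and Mup21 at the other, and 22 are pseudogenes. Only 2 other entries, Gm21286 and Gm12909, stand among them. The run begins after Slc46a2, a transporter of the solute carrier family, and is followed by Zfp37, a zinc finger gene. As the builds differ, no site was assigned to a gene.

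Promoters of 14 numbered Mup genes were matched by symbol in RefSeq (GRCm38.p6). The 250 bases before the start of 3 of them are printed 5′ to 3′ because they show how alike the copies are and how few CpGs they hold. Capitals mark CpG, and all 3 genes are on the minus strand.

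Mup2: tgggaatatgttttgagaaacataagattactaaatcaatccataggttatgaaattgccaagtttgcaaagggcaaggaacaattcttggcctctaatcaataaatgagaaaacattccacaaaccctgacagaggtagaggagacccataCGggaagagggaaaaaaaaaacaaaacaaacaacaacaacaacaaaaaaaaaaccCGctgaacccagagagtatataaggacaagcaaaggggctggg

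Mup17: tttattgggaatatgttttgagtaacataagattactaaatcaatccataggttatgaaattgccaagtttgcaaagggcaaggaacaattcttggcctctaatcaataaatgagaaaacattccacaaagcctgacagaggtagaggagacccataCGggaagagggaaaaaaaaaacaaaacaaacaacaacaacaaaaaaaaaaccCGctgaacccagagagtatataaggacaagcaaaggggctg

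Mup3: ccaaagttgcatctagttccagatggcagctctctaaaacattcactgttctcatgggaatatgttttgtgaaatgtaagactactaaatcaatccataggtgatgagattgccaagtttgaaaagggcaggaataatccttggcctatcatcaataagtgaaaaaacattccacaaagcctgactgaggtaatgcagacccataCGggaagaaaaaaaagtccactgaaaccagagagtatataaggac

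Mup2 and Mup17 were 96.1% identical over the 300 bases that run from 250 before to 50 after the start. Mup2 and Mup3 were 61.6% identical. Over the 91 pairs of the 14 genes the median identity was 73.4% (range 36.6% to 98.02%). The HpaII motif CCGG, which reads the same on both strands, was searched in every 300-base window of the table. It was in none of the 38 windows of the 17 matched Mup entries, several of which overlap. Of all 32851 windows, 52.8% held it. The 14 Mup windows held 1 to 4 CpGs, with a median of 3 against 7 over all windows. This says only that these letters are not in the windows searched in GRCm38.p6.

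Listed sites were sparse in the Mup interval and most of them were shared. Over the 8 samples, sites with whole tags carried 3818 HpaII tags and shared sites 3136.3. The interval held 26.9 sites per 100 kb, against 57.9 before it and 73.4 after it. Sites carry a running number along the genome, and the numbers spanned by the interval came to 949, of which 56.7% were listed in all 8 samples. The same share was 87.3% before and 88.4% after, and 20 further sites of the interval were listed in some samples only. Shared tags were found at 370 of the 538 sites (68.8%). They were found at 6.48% of the sites before, 4.84% of those after and 11.5% of all sites. Among 1306 tiles of 2 Mb with at least 50 listed sites, the interval ranked 20th from the highest for its share of shared sites, where the median tile had 10.9%.

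The middle of the interval could hardly be read one copy at a time. Both windows from 60900000 to 61099999 held 17 and 14 listed sites and none without shared tags. The 100 kb that begin at 60700000 and 60800000 had 13 of 14 and 17 of 18 shared. The first window (from 59900000) had 10 of 48 shared (20.8%). Between 61500000 and 61599999 it was 17 of 43. There were 3 stretches over 50 kb with no listed site, of 60.7, 61.7 and 61.3 kb, which began after positions 60317874, 60749121 and 60998834. They skipped 0, 1 and 3 site numbers, so hardly any catalogued site lies in them.

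Depth was lower inside the interval. Sites with whole tags had a median of 11 MspI tags, against 19 before and 22 after, and shared sites had 2.94. At a site with 11 MspI tags, a single HpaII tag gave an m-score of 27.5 in the shallowest sample and 10.6 in the deepest. A site with 11 MspI tags and no HpaII tag in any sample could still have an m-score up to 7.43 over the 8 samples together, the limit that 0 counts allow (3 counts). Tags carry no molecular identifiers, so this covers counting error only. Comparisons of levels therefore used sites with at least 10 MspI tags. These were 96 of 168 sites with whole tags and 99 of 370 shared sites, and 1887 of 2479 sites with whole tags in the flanks.

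The sites that could be read singly were mostly at the methylated end. Over the 96 sites the mean m-score was 15.7 ± 1.22 (SD, n = 8 samples), against 28.2 ± 0.88 over the 1887 flank sites. The samples lay between 14.02 and 17.9 in the interval and between 26.9 and 29.6 in the flanks, so the ranges did not overlap. The interval was lower in 8 of 8 samples, by 12.5 ± 0.93 on average (mean -12.5, SD, n = 8, two-sided exact sign-flip permutation test, p = 0.00781, the smallest it can give, adjusted p = 0.00781 over 2 such tests). The samples share one MspI reference, so this sign is not independent between them. In m-score the interval ranked 43rd from the lowest of 1289 tiles, where the median tile had 27.2.

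An m-score below 25 was found at 79 of the 96 sites (82.3%), against 60.1% of the flank sites. Between 25 and 75 lay 11 sites (11.5%, flanks 29.1%), and at 75 or above lay 6 sites (6.25%, flanks 10.7%). No HpaII tag in any sample was seen at 21 of the 96 (21.9%), against 7.74% in the flanks. In a single sample, 44.8% to 60.4% of the 96 sites had no tag, and 28.2% to 39.5% of the flank sites. The interval thus held a larger share of sites near 0 and a smaller share of middle m-score than its flanks. These shares were not matched for depth. Sites with whole tags had a median of 11 MspI tags in the interval and 20 in both flanks together. Whether depth bears on the shares was not tested.

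**Figure D1:**
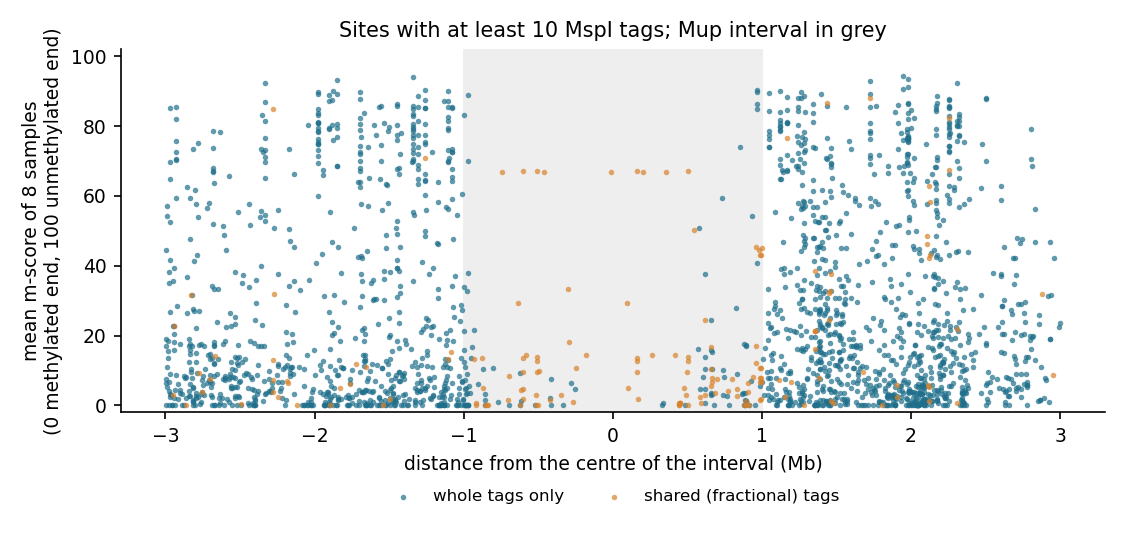
Mean m-score over the 8 samples of each site with at least 10 MspI tags, by distance from the centre of the Mup interval in Mb. Inside the grey interval blue points (whole tags only) lie mostly below 25 and thin out towards the middle, and high blue points stand near its ends, while 9 orange points (shared tags) near 67 are 2 repeated profiles.

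The gap was narrower within each class of site density. Only 7 of the 96 sites had 5 or more other listed sites within 500 bp, against 243 of 1887 in the flanks, and such dense sites were high in both places (59.4 ± 2.46 and 71.4 ± 1.71, SD, n = 8). Isolated sites, with no other listed site within 500 bp, had a mean of 11.2 ± 1.73 in the interval (44 sites) and 19.3 ± 1.42 in the flanks (693 sites). The interval was lower by 8.14 ± 1.81 among these (mean -8.14, SD, n = 8), in 8 of 8 samples (two-sided exact sign-flip permutation test, p = 0.00781, adjusted p = 0.00781). With a MspI minimum of 50 tags this turned to 14.8 higher in the interval, over 3 isolated sites only, against 23 in the flanks. Those 3 sites lay at 60097440 (m-score 10.6), 61476657 (50.9) and 61634461 (59.5). Sites with 1 to 4 neighbours had 13.3 ± 1.27 in the interval and 23.7 ± 1.07 in the flanks.

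Among sites with whole tags, the high m-scores were mostly at the ends. The first and the last 100 kb held 39 of the 96 sites and 78.8% of their HpaII tags, and all 6 sites with an m-score of 75 or above. Over all listed sites, however, the 2 end windows held 79.6% of the whole HpaII tags, 19.6% of the shared ones and 52.6% of both together, so most shared tags were placed in the 18 windows between. The mean m-score was 17.5 ± 2.85 in the first window and 45.9 ± 1.81 in the last (SD, n = 8), the highest of the 15 windows that held any of the 96 sites. The 18 windows between had a mean of 9.52 ± 1.56 over 57 sites, and 52 of these sites were below 25. Of those 15, the windows that begin at 60300000, 60500000 and 61300000 were lowest at 0, each from 1 site.

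The densest unmethylated stretch was a group of 8 sites with whole tags from 61869243 to 61869826, 584 bp long. It carried 1902 of the 3818 HpaII tags that the interval's sites with whole tags had over the 8 samples. Its strongest site, at 61869403 (47 MspI tags), had 157, 117, 50 and 156 HpaII tags in the lingonberry samples and 73, 63, 47 and 107 in the HFD samples. Its m-scores were 89.8, 91.5, 87.9 and 93.4 with lingonberries and 90.4, 89.7, 87.6 and 93.1 without. The samples of both diets overlapped, and the mean over all 8 was 90.4 ± 2.16 (SD). The site at 61869623 (30 MspI tags, 434 HpaII tags) was as high and the steadiest of the group, between 88.2 and 90.8 in every sample. The sites at 61869243 and 61869516 had 86.3 ± 6.04 and 84.98 ± 4.86. The site at 61869656, with 79 MspI tags the deepest of the group, had a middle score of 40.7 ± 8.06, although it was the next site after that at 61869623.

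At the other end, the site at 59927745 (29 MspI tags, 405 HpaII tags) had a mean m-score of 88.8 ± 2.42, and no sample was below 85.1. Its neighbour at 59927698 had 69.9 ± 10.7. The site at 59900742, close to the start of the interval, had 83.08 ± 5.31. In GRCm38.p6 the Mup entries are bordered by Slc46a2 and Zfp37, and no site was assigned to a gene. Whether the high sites at either end lie in Mup genes or in their neighbours was not tested.

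Away from the ends, 3 sites with whole tags had an m-score above 50. The site at 61751489 had an m-score of 73.9 ± 7.31 (16 MspI tags, 89 HpaII tags), that at 61634461 had 59.5 ± 8.01 (54 MspI tags, 171 HpaII tags) and that at 61476657 had 50.9 ± 5.52 (70 MspI tags, 164 HpaII tags). A further site of the last window, outside its dense group, was that at 61835855 with 54.1 ± 12.02. The site at 61476657 was named after its values were seen, and the others by rank. At 61476657 the samples had 42.6, 51.99, 49.2 and 52.5 with lingonberries and 56.02, 55.1, 56.6 and 43.02 without. Every sample had between 14 and 30 tags there, so the middle score did not come from a few samples.

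**Figure D2:**
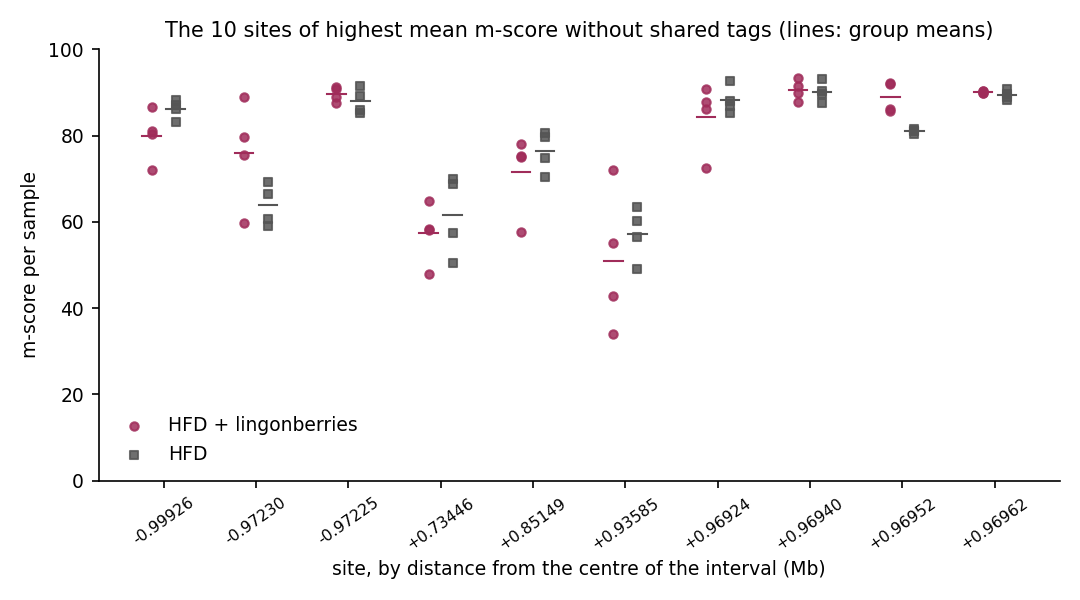
m-score in each sample at the 10 sites of highest mean m-score among those with whole tags and at least 10 MspI tags, ordered by distance from the centre of the Mup interval in Mb, with lines at the group means. The diets overlap at 9 of the 10 sites, and at the site +0.96952 Mb from the centre all 4 lingonberry samples (85.7 to 92.2) lie above all 4 HFD samples (80.4 to 81.4).

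The shared sites showed the duplicated structure of the interval directly. Of the 370 shared sites, 91 had HpaII tags in at least 3 samples. These 91 carried 57 different profiles of MspI and HpaII tags, where sites of one profile had equal values in all 8 samples. Of the 57 profiles, 20 were repeated, at 54 sites, with up to 7 copies. In the flanks 3 of 64 such shared sites were in a repeated profile, and among the 63 sites of the interval with whole tags and HpaII tags in at least 3 samples none was. Equal values at several positions were read as the same tags divided among matching places, and the copies are not replicates. The other 37 profiles stood at 1 site of the interval each and also had tags that were not whole. Places outside a profile can therefore hold part of its tags.

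**Figure D3:**
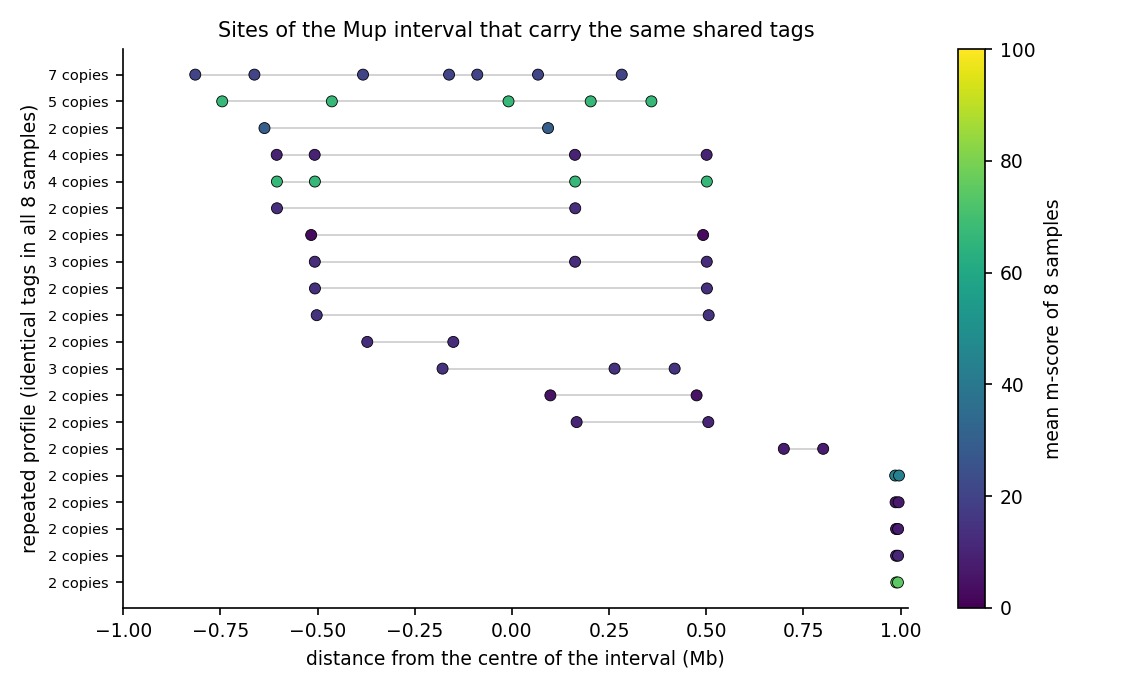
Positions of the sites that carry each of the 20 repeated profiles, by distance from the centre of the Mup interval in Mb, with 1 line per profile and colour for the mean m-score over 8 samples. Profiles with 3 to 7 copies span the middle of the interval, and 5 profiles with 2 copies crowd at its right end.

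The most tagged profile had 5 copies, at 60154612, 60436711, 60891144, 61102592 and 61258722, each with 55.8 MspI tags and 232.2 HpaII tags. The 5 together held 37.01% of all shared HpaII tags of the interval. Each copy had 37.45, 41, 19.1 and 20.7 tags in the lingonberry samples and 30.4, 15.7, 31.1 and 36.6 in the HFD samples. The m-score was 56.8, 72.7, 65.6 and 52.5 with lingonberries and 73.9, 57.9, 78.4 and 76.9 without. The diets overlapped, and the mean over 8 samples was 66.8 ± 10.04 (SD). The files do not tell whether 1 copy, some or all 5 were unmethylated.

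A second profile of similar level had 4 copies, at 60295347, 60393059, 61062635 and 61401404, with 18.2 MspI tags, 80.9 HpaII tags and a mean m-score of 67.2 ± 11.8. It belonged to a block of sites copied together. At all 4 places a site of low m-score (9.54 ± 3.75) lay 562 bp before it, and at 3 of them another (12.8 ± 5.69) lay 219 bp before it. At the remaining place the site 219 bp before it, at 60295128, had values of its own (4.58 ± 3.94). At each place a further site lay 165 bp after the 4-copy profile, with an m-score of 13.6 in 2 copies and 13.8 in the other 2. As the tags of a profile are divided among matching places, the state of each copy was not measured. The profile 562 bp before it also occurred once outside the interval, at position 141415188 of chromosome 4.

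The profile with the most copies, 7 between 60085289 and 61182407, had only 4.71 MspI tags and 3.43 HpaII tags per copy and a mean m-score of 20.2 ± 11.4. The shared site with the most tags was not repeated. It lay at 61445132 with 139.7 MspI tags and 334.5 HpaII tags, and its m-score was 50.3 ± 13.1, from 30.1 to 67.95. The 5-copy profile, this site and the 4-copy profile together held 57.99% of the shared HpaII tags. Of the 45 profiles with at least 10 MspI tags, 36 had an m-score below 25, 9 lay between 25 and 75 and none reached 75.

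The right end of the interval held a mirrored repeat. In all, 6 pairs of shared sites there had equal HpaII tags in all 8 samples within 0.02 of a tag, 4278 to 14418 bp apart. The centres of the 6 pairs fell within 3 bp of each other, at 61890797 for one pair and 61890800 for the others. The innermost pair, at 61888661 and 61892939, had the highest m-score of the 6, 74.7 ± 6.46 with 7 MspI tags. The next pairs outward were at the methylated end (10.8, 7.80 and 6.71), and the pairs at 61885907 and 61895693 (43.2) and at 61883588 and 61898006 (44.6 and 45.1) were intermediate. The equal tags follow from dividing them between matching places, so the 2 arms were not measured separately.

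The diets did not differ by the test in the mean m-score of the interval. At the 96 sites with whole tags it was 15.5, 14.7, 16.02 and 14.97 with lingonberries and 14.02, 16.7, 17.9 and 15.9 without. The lowest and the highest samples were both HFD, and the groups overlapped. The means were 15.3 ± 0.58 and 16.1 ± 1.63 (SD, n = 4 each), a difference of -0.84 with a standard error of 0.86 (two-sided exact permutation test, p = 0.4, adjusted p = 0.771 over 6 diet comparisons). The design gives 4 mice per group and no exact test of 4 against 4 can go below p = 0.0286.

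At the 99 shared sites the samples had 14.7, 14.6, 14.4 and 12.3 with lingonberries and 16.1, 12.9, 18.3 and 16.9 without. One HFD sample lay among the lingonberry samples and the other 3 lay above them. The difference was -2.09 with a standard error of 1.28 (13.97 ± 1.14 against 16.1 ± 2.30, SD, n = 4 each, exact permutation p = 0.171, adjusted p = 0.514). Over all shared sites of the genome with at least 10 MspI tags it was -1.33. Such sites had -2.32 before the interval (28 sites) and 0.72 after it (38 sites). Shared HpaII tags per 1000000 tags of the sample were 37.5, 41.9, 42.7 and 29.3 with lingonberries and 47.6, 36.6, 67.7 and 54.2 without, which is a log2 difference of -0.43 with a standard error of 0.22 (n = 4 each, exact permutation p = 0.143, adjusted p = 0.514). Without HFD sample 2 the m-score and tag differences at the shared sites of the interval were -3.15 and -0.58. Each had an exact permutation p of 0.0286, the smallest possible, and an adjusted p of 0.0857. Tags per 1000000 at sites with whole tags were 49.9, 51.3, 50.96 and 52.9 against 47.9, 54.1, 50.7 and 51.2, a log2 difference of 0.010 with a standard error of 0.040 (n = 4 each, exact permutation p = 0.857, adjusted p = 1). Over all 8 samples the SD of the log2 value was 0.052 at sites with whole tags and 0.37 at shared sites.

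**Figure D4:**
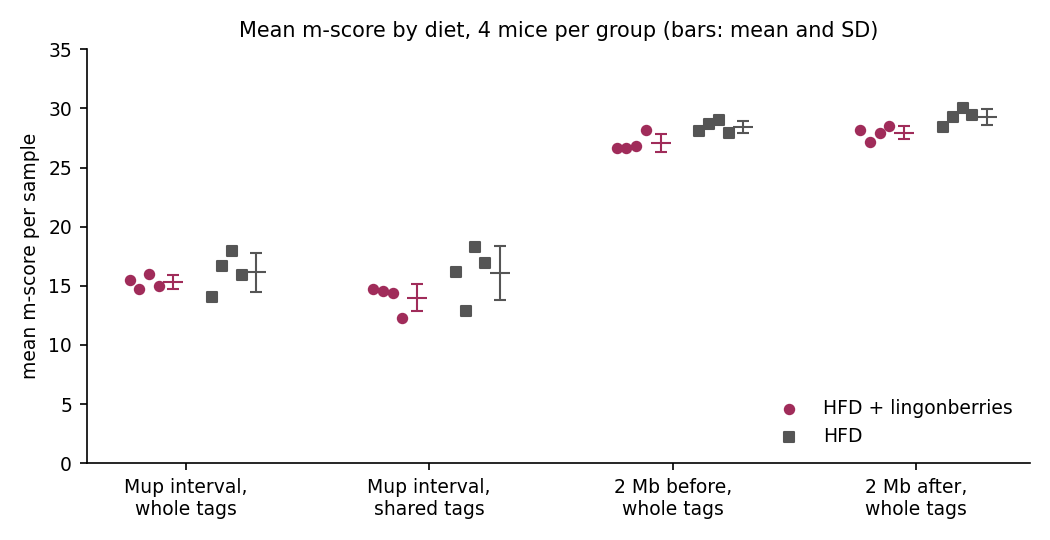
Mean m-score per sample over sites with at least 10 MspI tags in the Mup interval (whole and shared tags) and in the 2 Mb before and after it (whole tags), by diet, with the group mean and SD beside the 4 samples. All interval values lie between 12.3 and 18.3 and all flank values between 26.6 and 30.01, and the diets overlap in every set, in the interval and in the flanks.

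The flanks were lower in mean with lingonberries, and so was most of the genome. In both flanks the samples of the diets overlapped. Before the interval, lingonberry sample 4 had 28.2, above HFD samples 1 and 4 (28.1 and 27.9). After it, the same lingonberry sample had 28.5 and HFD sample 1 had 28.4. With limma on the mean m-score of 2 Mb tiles, 77.6% of 1289 tiles were lower at an adjusted p below 0.05 and 0% were higher. Depth was mostly higher in the lingonberry samples, and whether it bears on this shift was not tested. The tile before the interval had a difference of -1.34 with a standard error of 0.56 (limma adjusted p = 0.0252) and the tile after it -1.32 with 0.54 (limma adjusted p = 0.0227). The interval itself had -0.84 with 0.96 (limma adjusted p = 0.399) and did not pass, and the median over all tiles was -1.67. It rested on 96 sites, against 806 before and 1081 after. Whether the interval responded less than its flanks was tested directly. Interval minus flanks was -12.3 ± 0.80 in the lingonberry group and -12.8 ± 1.10 in the HFD group. These differed by 0.49 with a standard error of 0.68 (n = 4 each, exact permutation p = 0.514, adjusted p = 0.771). The log2 ratio of interval to flank tags was -5.15 ± 0.020 and -5.15 ± 0.090 (exact permutation p = 1, n = 4 each). The interval was not shown to differ from its flanks in response to diet.

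No single site of the Mup interval passed. With limma over all 1310003 sites, 0.0134% were called at an adjusted p below 0.05 (0.00397% higher and 0.00947% lower with lingonberries), and 0 of the 538 sites were. The 176 sites called were fewer than the 257 unchanged sites that limma called in simulated data, so such calls are not reliable. Among the 1093526 sites with at least 1 HpaII tag over all samples, 0 were called. The smallest adjusted p in the interval was 0.873, and 4 sites (0.743%) had an unadjusted p below 0.05, against 4.17% of all sites. Sites without a HpaII tag in any sample, which cannot differ, made up 43.3% of the 538 and 14.99% of all sites. At the 96 sites with whole tags and at least 10 MspI tags 3 had an unadjusted p below 0.05 (3.13%), against 4.79% of 867475 such sites in the genome. Of the 96, 31 were higher with lingonberries, 44 lower and 21 equal, and the median difference was 0 (genome -0.25). The share of lower sites was 45.8%, against 51.3% of such sites in the genome. The groups did not overlap at 1 site that was higher and 1 that was lower, 2.08% of the 96, against 2.39% of such sites in the genome, so neither share was above the background.

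The site higher in all 4 lingonberry samples was that at 61869516 in the unmethylated group, with 91.9, 92.2, 86.1 and 85.7 against 81.4, 81.05, 81.06 and 80.4 (difference 7.98, limma adjusted p = 0.873). It had 14 MspI tags, and its HFD values rested on 9 to 11 HpaII tags each. The site lower in all 4 was at 61516595, with 29.7, 0, 26.5 and 31.0 against 54.6, 44.1, 47.4 and 68.04 (difference -31.7, limma adjusted p = 0.873). It had 11 MspI tags and no more than 5 HpaII tags in any sample, so 1 tag more or less moves its score widely. The partly methylated site at 61869656 had 35.1 ± 5.07 with lingonberries and 46.2 ± 6.56 without (limma adjusted p = 0.873), with 1 HFD sample inside the range of the lingonberry samples. The next in rank were 59927698 (difference 12.1) and 60126731 (1.97, from 2 tags in all) on the higher side and 61827318 (-11.6, from 6 tags) on the lower side.

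No 100 kb window passed anywhere in the genome (0% of 23996 by limma, 16.5% at an unadjusted p below 0.05). Of the 20 windows of the interval 6 had the 5 sites that the test required. The smallest adjusted p among them was 0.296, in the window that begins at 60000000, with 3.07 ± 0.95 with lingonberries and 7.29 ± 3.80 without (SD, n = 4 each, 5 sites). The last window, with the dense group, had 44.98 ± 2.31 and 46.7 ± 0.45 (limma adjusted p = 0.42).

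Among the 57 profiles of shared tags 37 were lower with lingonberries and 20 were higher, and 0 passed limma at an adjusted p below 0.05 (1 at an unadjusted p below 0.05). The 57 profiles are not 57 separate measurements. Some had equal HpaII tags in all 8 samples and differed only in MspI tags, as at 59970418 and 60019407. The share of lower sites among all shared sites of the genome was not counted, and their mean difference was -1.33. The 5-copy profile had 61.9 ± 9.05 with lingonberries and 71.8 ± 9.41 without (difference -9.86, limma adjusted p = 0.873). The single site at 61445132 had 44.5 ± 15.3 and 56.1 ± 8.71 (difference -11.7, limma adjusted p = 0.873). The 4-copy profile had 62.3 ± 12.1 and 72.1 ± 10.6 (limma adjusted p = 0.873). All 3 of the most tagged profiles were thus lower in mean with lingonberries and none passed the test.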

How the data were processed

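HELP-tagging libraries of liver DNA from 8 mice were analysed, 4 per diet. DNA was, per the labels' protocols, phenol-chloroform extracted, cut with HpaII, ligated to adapters, cut with EcoP15I, transcribed, reverse transcribed and amplified. Per the file headers, each deposited table gives a site's number, chromosome, position, m-score (a score) and conf (a signal), and the submitters' processing notes name mm9 and CASAVA. The sources used here name no aligner and no origin of the MspI reference. From the values, the deposited m-score behaved as an angle and the conf signal as a vector length, so HpaII and MspI tags were recovered as its sine and cosine parts. The MspI part was 1 common reference of 29676242 tags, multiplied by a factor per file.

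The rule for members was the interval, and the members, lists and named sites were chosen with earlier results of these data known. Named were the 10 sites of highest m-score, the 5 with most tags (whole and shared), the 3 with smallest p in each direction, and the highest and lowest windows. Levels used sites with at least 10 MspI tags. For single values, exact permutation tests were used, two-sided over 70 assignments, with Benjamini-Hochberg adjustment, and sites, 2 Mb tiles (at least 50 sites) and 100 kb windows (at least 5 sites) with limma 3.58.1 (mean trend) in R 4.3.3 over the whole genome. As the values are scores, no count model was used.

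On simulated data made from the real samples, limma called 74 of 100 sites raised 4-fold and 59 of 100 lowered to 0.25 (1310003 sites), and 257 unchanged sites were called too. The changed sites were drawn from sites with whole tags, many HpaII tags and a middle m-score. The 96 sites of the interval had a median of 6 HpaII tags over the 8 samples. These shares therefore do not tell what limma could call there. Limma called 100 of 100 tiles in each direction at 2-fold and 0.5-fold, with 20 false calls among 1089, and 82 and 61 of 100 windows. All simulated noise was counting noise, without differences between mice. Alternatives were other MspI minimums (1 and 50 tags), a tolerance of 0.05, each flank alone, the median, and each sample left out. Added after seeing the data were the m-score of summed tags, each profile counted once, and shared sites in the comparison with the flanks. A reference genome of build mm9 was not used here, so site sequences and gene assignments are left out. Labels name no batches, and a p-value reflects only how these mice varied.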

Additional observations from a re-analysis of the deposited data

Results flagged for a closer look

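Among 56 groups of 4 values tested for 1 sample far from the rest, 2 had one, where chance gives about 2.8. The mean m-score of the shared Mup sites was 12.3 in lingonberry sample 4, and the other 3 lingonberry samples had 14.4 to 14.7. The same sample had an m-score of 57.6 at position 61751489 of chromosome 4, from 7 HpaII tags, where the other 3 had 75.1 to 78.1. Without this sample the diet difference in m-score at shared sites was -1.52 (exact permutation test, adjusted p = 0.686), and it was -2.09 with it.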

How the results depend on the processing

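Of 135 alternative values, 117 kept their direction and their side of the threshold and 18 reversed in sign, of which 17 belong to diet differences that passed no test. The 117 include the limma counts of sites, tiles and windows called in the interval. These were 0 throughout and have no direction to keep. The within-sample result reversed once: among isolated sites the interval was 14.8 higher than the flanks with a MspI minimum of 50 tags (adjusted p = 0.00781 by the exact test), where it held 3 sites. Over all sites with whole tags it was -15.5 with a minimum of 1 tag, -18.8 with 50 (9 sites) and -6.98 among shared sites. With a MspI minimum of 50 tags the diet difference of interval minus flanks was -3.93, that of log2 tags per 1000000 -0.39 and that of the log2 ratio to the flanks -0.47 (exact adjusted p = 0.0857 each, 9 sites). With a minimum of 1 tag the last 2 were -0.022 and -0.024. The log2 ratio was -1.74e-05 with a tolerance of 0.05 and -0.0059 with the flank after the interval only. With the m-score of summed tags, chosen after seeing the data, the diet difference at sites with whole tags was 0.14 and that of interval minus flanks -0.034.

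Leaving out each sample in turn, the diet difference at sites with whole tags ranged from -1.54 to -0.25, at shared sites from -3.15 to -1.34, and for interval minus flanks from -0.00022 to 0.86. That of log2 tags per 1000000 ranged from -0.019 to 0.039 (whole) and from -0.58 to -0.28 (shared), and the log2 ratio from -0.035 to 0.039. None passed after adjustment. Without HFD sample 2 both differences at shared sites had an unadjusted exact p of 0.0286, the smallest possible, and an adjusted p of 0.0857. The interval minus flanks within samples stayed between -12.7 and -12.3, and among isolated sites between -8.55 and -7.68. No site, tile or 100 kb window of the interval was called by limma under any alternative, and the cause of the reversals was not tested. No paired analysis was possible because the labels carry no number shared by samples of both diets. Low MspI depth and shared tags leave 96 of 538 sites to the main comparisons.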
